A study of Mus musculus with 2 samples.

Results

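The 8 heavy chain constant genes of the mouse (Ighm, Ighd, Igha, Ighe, Ighg1, Ighg2b, Ighg2c and Ighg3) were followed by name through a gene table of 32285 genes, in eYFP+ cells of the stromovascular fraction (SVF) of perigonadal white adipose tissue (gWAT). Of these 8 genes, 7 had a molecule in either library and 1, Ighe, had none. Both libraries came from male Cyp1a1 fate reporter mice (Cyp1a1Cre x R26LSL-eYFP). In this line Cre made from the Cyp1a1 locus, a target of the aryl hydrocarbon receptor, switches on eYFP for the rest of a cell's life and in its daughters. The LFD library was from mice on a purified low-fat diet with 10% fat, and the HFD library from mice on a purified high-fat diet with 60% fat, each for 12 weeks. FICZ, a ligand of the receptor, was given to all mice on either diet (10 mg/kg, 5 days ahead of tissue collection), and live (DAPI-) eYFP+ events were sorted. No library without FICZ and none of eYFP- cells was analysed here. Mice of a diet were pooled into 1 library and no file tied a cell to a mouse, so each comparison below sets 1 library beside another, without a replicate and without a test. Intervals are exact 95% intervals for counting error only, and they leave out the differences between mice, sorts and libraries.

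A B cell makes the heavy chain of its antibody by joining a variable region to a constant gene. Ighm and Ighd are spliced from the same primary transcript, so a naive B cell carries IgM and IgD together. On activation the cell may cut out the DNA between Ighm and a downstream gene, a process called class switch recombination, and then make IgG, IgE or IgA. Plasma cells secrete antibody at a high rate, and innate-like B-1 cells of the body cavities and of visceral fat are known for IgM and IgA. The leading gene of a cell, meaning the constant gene with the most unique molecular identifiers (UMIs, each 1 counted RNA molecule), is used below as the isotype that the cell transcribes most.

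In GENCODE M21 (GRCm38) the genes lie on the minus strand of chromosome 12 in the order Ighm (chr12:113418558-113422730), Ighd (chr12:113406604-113416324), Ighg3 (chr12:113356224-113361232), Ighg1 (chr12:113325240-113330523), Ighg2b (chr12:113302965-113307933), Ighg2c (chr12:113285325-113288932), Ighe (chr12:113269260-113273248) and Igha (chr12:113254830-113260236), and no other annotated gene overlaps them. Each has a secreted and a membrane form that part at the last shared exon. The coding ends of the secreted forms are shown for the 4 genes that led at least 1 plasma cell, read 5′ to 3′ on the transcribed strand. Capitals mark the coding bases, stop codon included, that only the secreted form has, and the 60 lower-case bases before them are in both forms. The stretches are chr12:113420867-113420988 for Ighm, chr12:113258768-113258889 for Igha, chr12:113306389-113306456 for Ighg2b and chr12:113359665-113359732 for Ighg3.

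Ighm: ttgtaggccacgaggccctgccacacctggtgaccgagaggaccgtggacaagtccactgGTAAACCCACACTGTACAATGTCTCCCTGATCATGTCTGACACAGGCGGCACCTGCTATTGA
Igha: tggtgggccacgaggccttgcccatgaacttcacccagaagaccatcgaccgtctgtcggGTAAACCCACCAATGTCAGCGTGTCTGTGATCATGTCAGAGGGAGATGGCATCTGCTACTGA
Ighg2b: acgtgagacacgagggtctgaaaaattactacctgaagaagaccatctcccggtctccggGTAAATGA
Ighg3: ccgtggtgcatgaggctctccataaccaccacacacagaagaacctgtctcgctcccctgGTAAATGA

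The secreted tails of Ighm and Igha each run over 62 bases, which encode the tailpiece that joins J chain in polymeric IgM and IgA. The last 60 coding bases of these 2 genes were identical at 68.3% of positions. The tails of Ighg2b and Ighg3 hold only 8 bases. The count tables give 1 value per gene, so secreted, membrane and unrearranged (germline) transcripts of a constant gene cannot be told apart. Over the last 300 bases of the secreted transcripts, Ighg2b and Ighg2c were identical at 85.3% of positions. Over their whole length they shared 56 windows of 50 bases (5.26% of those of Ighg2b), the only pair of the 8 genes with any such window. Counts of these 2 genes are uncertain where reads fall in a shared window, and how many did is not known.

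The LFD library had 10218 cells and the HFD library 8545 cells within the limits of 500 to 40000 UMIs and under 12.5% mitochondrial UMIs, with medians of 10634 and 13224 UMIs. Cells were clustered without immunoglobulin genes and named from marker lists. Plasma cell-like cells numbered 411 in the LFD and 1399 in the HFD library, and B-like cells 1139 and 823. Every gene of the plasma cell list, among them Mzb1, Xbp1, Sdc1 and Prdm1, was at 25% or more of its highest cluster level in each of the 3 plasma cell-like clusters. Different clusters held the plasma cell-like cells of the 2 libraries, since cluster 14 held 347 of the LFD but 2 of the HFD cells, and clusters 10 and 11 held 741 and 656 of the HFD but 29 and 35 of the LFD cells. The libraries shared 27 barcodes, 22 of them among the cells kept, and none was plasma cell-like in both.

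Ighm was the main constant gene in both libraries and in every B-lineage class (the plot of levels by cell type). A UMI marks the 3′ end of 1 molecule whatever its length, so members can be set side by side in UMIs. In LFD plasma cell-like cells the summed UMIs were 358775 for Ighm, 4108 for Igha, 1406 for Ighg2b, 274 for Ighg3 and 16 for Ighd. In HFD plasma cell-like cells they were 1793554 for Ighm, 2464 for Igha, 39 for Ighd, 23 for Ighg2b and 13 for Ighg3. Ighe, Ighg1 and Ighg2c were at 0 in both, with 3 counts corresponding to 0.560 CPM (UMIs of a gene relative to all UMIs of the class) in LFD and 0.142 CPM in HFD.

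**Figure D1:**
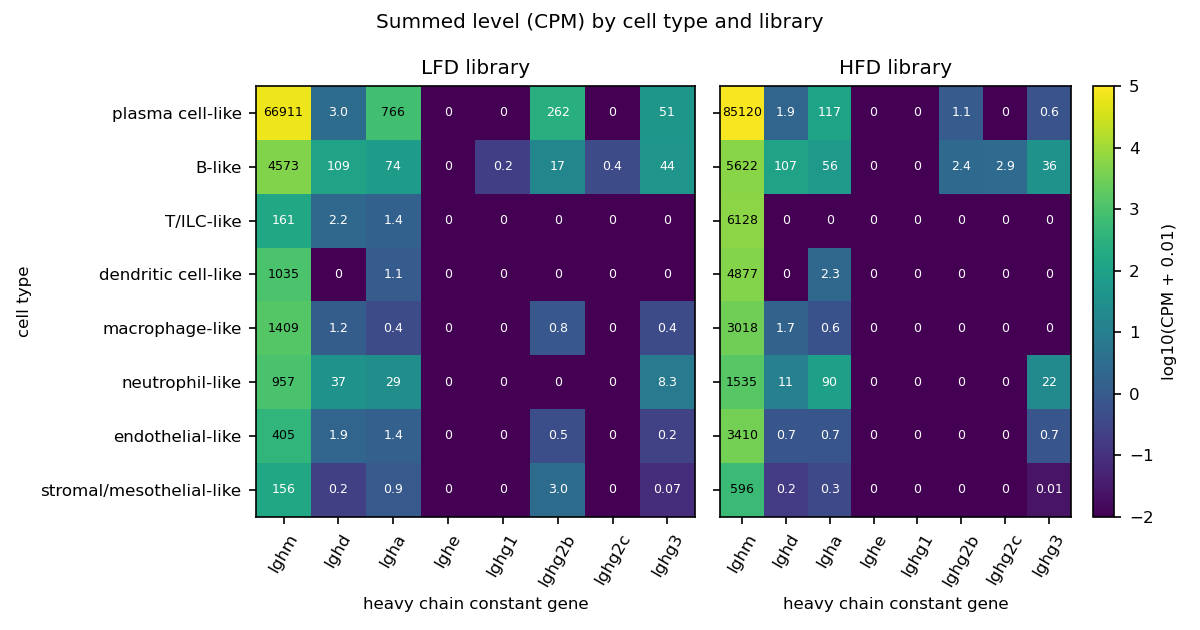
Level of each heavy chain constant gene (CPM of the summed UMIs, colour on a log10 scale, values printed) in 8 cell types of the LFD (left) and HFD (right) library. Ighm ranged from 66911 and 85120 CPM in plasma cell-like cells to 156 and 596 CPM in stromal/mesothelial-like cells, and Ighe was 0 throughout.

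In plasma cell-like cells the level of Ighm was 66911 CPM on LFD against 85120 CPM on HFD, so the HFD to LFD ratio was 1.27 (1.268 to 1.277). Over the 10934 genes with at least 20 UMIs in these cells the median ratio was 0.926, and 648 of them, or 5.93%, were at least 2-fold higher or lower in HFD. Of the 5 constant genes with that many UMIs, 3 were past 2-fold, all lower in HFD. Igha was at 766 and 116.9 CPM, a ratio of 0.153 (0.145 to 0.1605). Ighg2b was at 262 and 1.09 CPM, and Ighg3 at 51.1 and 0.617 CPM. The ratio of Ighg3, 0.0121, was 0.145 without the highest cell of each library and 0.269 with cells taken by markers. Ighd was at 2.98 and 1.85 CPM, with an interval of the ratio that spans 1 (0.620, 0.339 to 1.19), and a ratio of 1.21 (0.617 to 2.59) with cells taken by markers.

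These 3 lower sums rested on a handful of cells. Cells led by Igha, 6 in LFD and 7 in HFD, held 98.7% and 87.5% of the Igha UMIs of the class, and the highest cell alone held 37.5% and 35.4%. Both LFD cells led by Ighg2b held 99.9% of Ighg2b, and a lone LFD cell held 94.9% of Ighg3. Of the 23 HFD Ighg2b UMIs, 22 were in 1 cell led by Ighm. The ratios of Igha, Ighg2b and Ighg3 thus describe few cells, and their counting intervals do not carry that cell-to-cell spread.

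Per cell, plasma cell-like cells carried a median of 841 Ighm UMIs in LFD (quartiles 522 and 1152, highest 3244) and 1184 in HFD (855.5 and 1578, highest 4399). As a share of the UMIs of the same cell, the median was 6.60% in LFD and 8.49% in HFD. All immunoglobulin genes together took a median of 27.1% and 34.1% of a cell's UMIs. The distributions overlapped over most of their range, and the HFD cells lay higher (the plot of Ighm UMIs per cell). In B-like cells the medians were 18 and 22 Ighm UMIs, or 0.437% and 0.490% of the cell. Ighm therefore differed between the 2 classes far more than between the libraries.

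**Figure D2:**
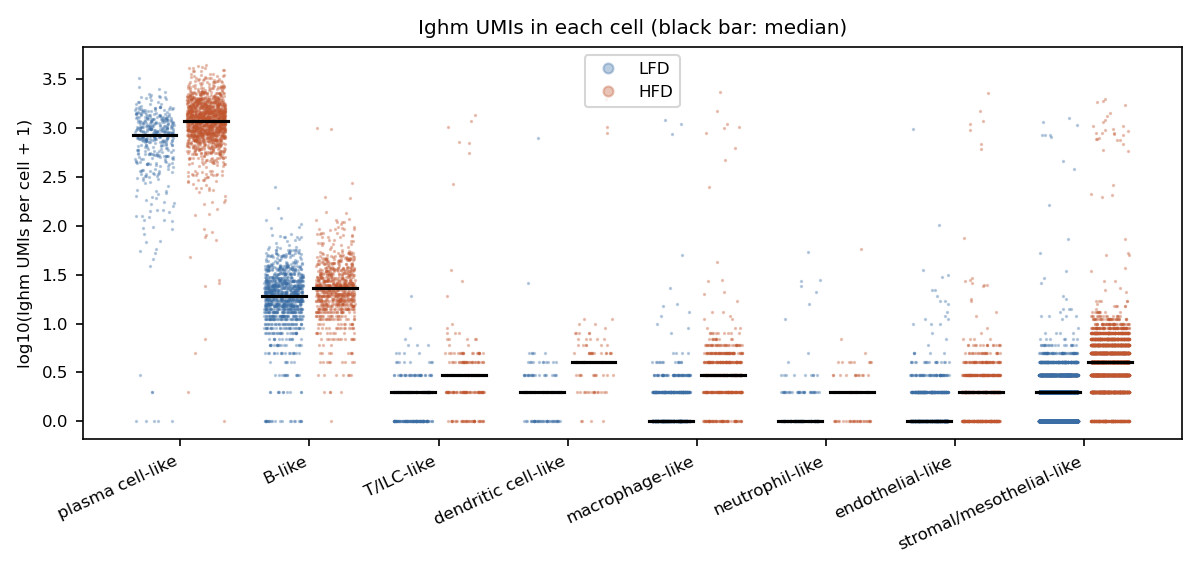
Ighm UMIs in each cell (log10 of UMIs + 1) by cell type, LFD in blue and HFD in orange, with the median as a black bar. Medians were 841 and 1184 UMIs in plasma cell-like, 18 and 22 in B-like cells and between 0 and 3 in the other types, in which a few droplets reached the plasma cell range.

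The isotype make-up of the plasma cell-like cells was almost entirely IgM. Each of them had at least 10 UMIs of the 8 genes and a leading gene. Ighm led 402 of 411 LFD cells (97.8%, 95.9 to 98.99%) and 1392 of 1399 HFD cells (99.5%, 98.97 to 99.8%). Igha led 6 LFD cells (1.46%, 0.538 to 3.15%) and 7 HFD cells (0.500%, 0.201 to 1.03%). An IgG gene led 3 LFD cells (0.730%, 0.151 to 2.12%), 2 of them by Ighg2b and 1 by Ighg3. In HFD an IgG gene led 0 of 1399 cells, with an exact upper limit of 0.263%. No cell was led by Ighd, Ighe, Ighg1 or Ighg2c.

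Cells led by any gene other than Ighm were 9 of 411 in LFD (2.19%, 1.01 to 4.12%) and 7 of 1399 in HFD (0.500%, 0.201 to 1.03%), a ratio of 0.229 (0.0723 to 0.690) by counting error. The ratio was 0.136 (0.02996 to 0.5075) at a mitochondrial limit of 5%, 0.124 (0.0345 to 0.370) over all droplets with at least 100 UMIs of the 8 genes and 0.0802 (0.0204 to 0.3735) without cluster 14, which held almost only LFD cells. For Igha alone the ratio was 0.343, and its interval of 0.0986 to 1.23 spans 1. Cluster 14 had 5 such cells of 347 (1.44%), and without it the LFD share was 6.25% (1.73 to 15.2%) of 64 cells. In the clusters that held the HFD cells, 4 of 741 and 3 of 656 were led by Igha. Taking any droplet with at least 100 UMIs of the 8 genes, whatever its cluster, Ighm led 490 of 503 in LFD and 1559 of 1564 in HFD, and Igha led 9 and 5.

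**Figure D3:**
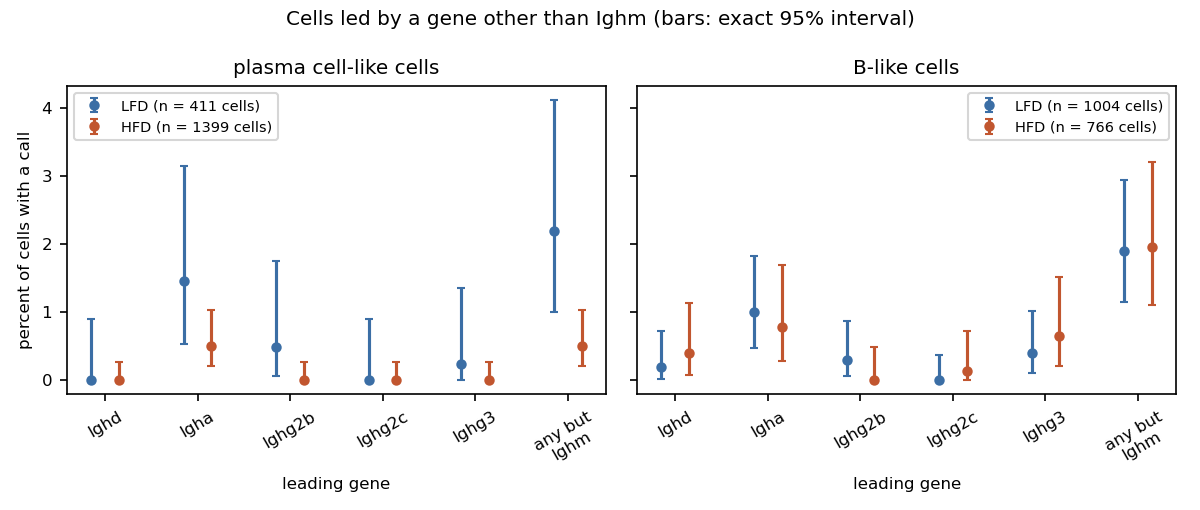
Share of cells with a leading-gene call that were led by a gene other than Ighm (percent, with exact 95% intervals), for plasma cell-like (left) and B-like (right) cells. In plasma cell-like cells the points for any gene but Ighm are 2.19% in LFD and 0.500% in HFD, and in B-like cells 1.89% and 1.96%.

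The cells led by Igha were purer in LFD than in HFD. Igha held a median of 100% (lowest 92.6%) of their constant gene UMIs in LFD and 95.3% (lowest 88.2%) in HFD. The 6 LFD cells led by Igha carried 1540, 716, 678, 478, 399 and 245 Igha UMIs, and 5 of them had no Ighm UMI, while the cell with 478 had 38. The LFD cells led by Ighg2b had 730 and 674 UMIs of it with 1 Ighm UMI each, and the cell led by Ighg3 had 260 with 2 of Ighm. The 7 HFD cells led by Igha carried 872, 553, 296, 248, 142, 30 and 14 Igha UMIs. Beside these stood 6, 27, 25, 23, 1, 4 and 0 Ighm UMIs. Except for the HFD cells with 30 and 14, the isotype of each rested on over 100 molecules of its gene.

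The HFD cells with 30 and 14 Igha UMIs had many light chain molecules, 831 and 670 of Iglc3. Among all cells not led by Ighm, Iglc2 was the leading light chain constant gene in 2 of 9 LFD cells and Iglc3 in 2 of 7 HFD cells, and the kappa gene Igkc led in the rest. In 4 of the 7 HFD cells led by Igha the leading light chain variable gene was Igkv1-117, with 8, 3, 2 and 1 UMIs. Igkv1-117 had a UMI in 21 of 1392 HFD plasma cell-like cells led by Ighm (1.51%, 0.936 to 2.30%), and in 0 of the 6 LFD cells led by Igha. This gene was chosen after its values were seen. The paper states that 2 mice were pooled per group, and no file tied the 4 cells to a mouse. Scrublet scored 2 of the 9 LFD and 1 of the 7 HFD cells not led by Ighm among its likeliest doublets.

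Within a plasma cell-like cell the constant genes largely excluded each other (the plot of Ighm against the other genes). The leading gene held at least 99% of the UMIs of the 8 genes in 405 of 411 LFD cells (98.5%) and 1387 of 1399 HFD cells (99.1%). In 368 LFD cells (89.5%) and 1296 HFD cells (92.6%) no other constant gene had a UMI. The least pure LFD cell was the cell with 478 Igha and 38 Ighm UMIs (92.6%). The least pure HFD cell had 688 Ighm and 222 Igha UMIs (75.6%), and it was 1 of 2 HFD cells under 90%. Among Ighm-led cells, Igha had a UMI in 19 LFD and 57 HFD cells, and at least 5 UMIs in 1 and 4 of them.

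**Figure D4:**
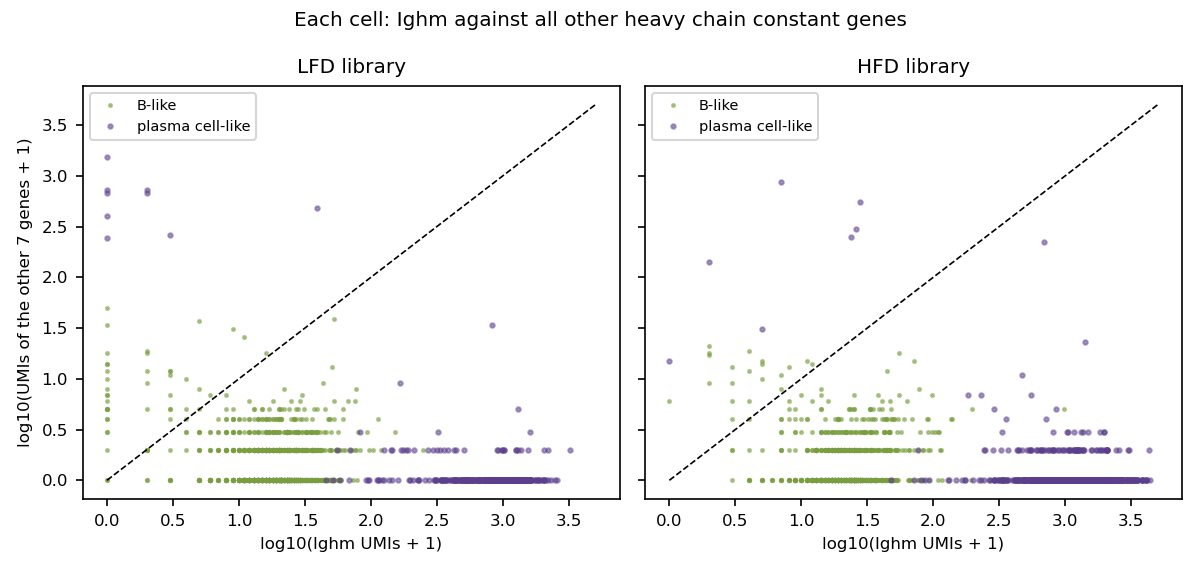
Each plasma cell-like (purple) and B-like (green) cell by its Ighm UMIs (x axis) and the summed UMIs of the other 7 constant genes (y axis), both as log10 of UMIs + 1, with the line of equal counts dashed. Most plasma cell-like cells lie on the x axis, and the 9 LFD and 7 HFD cells not led by Ighm lie above the dashed line.

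Other readouts of the non-IgM plasma cell-like cells rested on 9 LFD and 7 HFD cells. Jchain, which links IgM and IgA into polymers, was found in all 9 LFD and all 7 HFD cells not led by Ighm. As CPM of the UMIs outside immunoglobulin genes it was at 13454 in LFD cells led by Ighm, 14903 in those led by Igha and 19889 in those led by an IgG gene. In HFD cells it was at 23883 with Ighm and 23171 with Igha. The level of Jchain thus differed more between the libraries than between IgM and IgA cells of the same library. The median ratio of light chain to heavy chain UMIs was 2.90 in LFD and 2.83 in HFD cells led by Ighm, against 1.87 and 3.45 in those led by Igha. At least 5 UMIs of proliferation genes, in cells thinned to 2000 UMIs, were found in 103 of 402 LFD and 340 of 1392 HFD cells led by Ighm, and in 1 of 6 and 2 of 7 led by Igha. The totals hold the few cells, 2 LFD and 3 HFD in the whole class, that were too shallow to thin. Summed over the B-1 list, CPM of the UMIs outside immunoglobulin genes came to 454 in LFD cells led by Ighm and 740 (542 to 987.5) in those led by Igha, and to 439 and 900 (649 to 1217) in HFD. The follicular list came to 179 and 96.6 (35.4 to 210.2) in LFD and to 132 and 364 (212 to 583) in HFD, so its order was not the same in the libraries. With 6 and 7 IgA cells no list of genes that differ by isotype was made, since 30 cells per group were required.

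Ighm took a smaller share of the cell in plasma cell-like cells with more proliferation UMIs after thinning, in both libraries. Immunoglobulin UMIs were part of the thinned counts. A cell with a high antibody share thus kept fewer other UMIs and could fall into a lower proliferation class. Part of this inverse relation is therefore built in, and how large a part was not tested. With 0 or 1 proliferation UMI, Ighm was a median of 7.68% of the UMIs of 203 LFD cells and 10.0% of those of 785 HFD cells. With 5 or more, it was 5.87% in 105 LFD and 6.89% in 342 HFD cells. The medians of Ighm UMIs from the lowest to the highest class were 833, 841 and 899 in LFD and 1181, 1028 and 1294 in HFD. The median cell had 10390 UMIs in the lowest and 15879 in the highest LFD class, and 11890 and 18716 in the HFD classes. Within the cells with 0 or 1 proliferation UMI the HFD to LFD ratio of the Ighm level was 1.31 (1.30 to 1.31). Within those with 5 or more proliferation UMIs it was 1.23 (1.22 to 1.24). The ratio of Igha, by contrast, was 0.0990 in the former and 0.664 in the latter, where Igha led 1 LFD and 2 HFD cells.

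**Figure D5:**
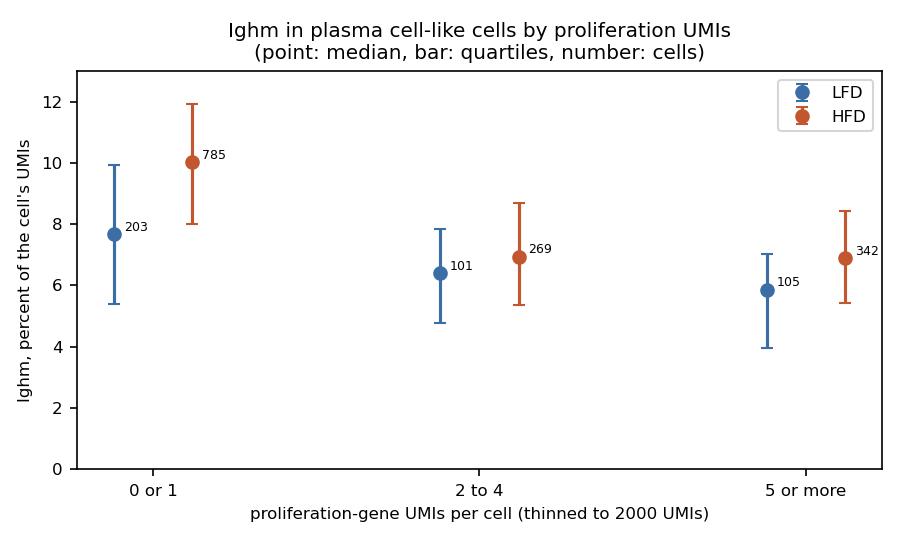
Ighm as a percent of the UMIs of plasma cell-like cells by their proliferation-gene UMIs after thinning to 2000 UMIs, LFD in blue and HFD in orange, with median, quartiles and number of cells. The medians go from 7.68% to 5.87% in LFD and from 10.0% to 6.89% in HFD between the lowest and the highest class. The quartile ranges overlap. The thinned counts include immunoglobulin UMIs, so part of the fall is built in.

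For B-like cells Ighm summed to 4573 CPM on LFD against 5622 CPM on HFD. That ratio of 1.23 (1.21 to 1.25) stood beside a median of 1.03 over 10358 genes, of which 552 (5.33%) were at least 2-fold higher or lower. Part of this sum was held by cells with at least 100 UMIs of the 8 genes, which numbered 5 in LFD and 15 in HFD and carried 2.95% and 15.6% of the UMIs of these genes. Those cells had a median of 4 and 5 plasma cell markers, against 1 in the rest of either library, and the part of plasma cell RNA in their Ighm was not tested. Without them the ratio of Ighm was 1.11 (1.09 to 1.13). After taking off the free RNA described below it was 1.14 (1.12 to 1.16).

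Ighd, the mark of mature B cells that keep IgM and IgD together, reached 109 CPM on LFD against 107 CPM on HFD among B-like cells, with a ratio of 0.984 (0.867 to 1.12). At the full depth of a median 4045 and 4231 UMIs, 33.4% and 31.1% of B-like cells had an Ighd UMI. In cells thinned to 2000 UMIs the shares were 19.0% (208 of 1095, 16.7 to 21.45%) and 16.1% (129 of 800, 13.6 to 18.9%). In equally thinned stromal/mesothelial-like cells, which do not make antibody, 0.0943% and 0.0706% had an Ighd UMI, below the B-like cells. Other named types outside the B lineage were at 0.389% or less, except LFD neutrophil-like cells, of which only 11 were deep enough to thin (27.3%, 6.02 to 60.97%). Plasma cell-like cells were at 0.244% and 0.215%. Of the thinned B-like cells with Ighd, 207 of 208 in LFD and 129 of 129 in HFD also had Ighm, which was found in 97.6% and 99.5% of all thinned B-like cells. For each 1000 Ighm UMIs there were 23.8 Ighd UMIs in LFD and 19.1 in HFD B-like cells, against 0.0446 and 0.0217 in plasma cell-like cells.

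B-like cells with an Ighd UMI after thinning were set beside those with none at full depth, and cells that lost their Ighd UMIs in thinning are in neither group. Of the 8 follicular genes, Fcer2a had a ratio whose interval left out 1 in both libraries, and Ccr7 (0.913 and 1.11), Cxcr5 (0.940 and 1.11) and Klf2 (0.962 and 1.105) lay near 1. Fcer2a, the low-affinity IgE receptor CD23 of follicular B cells, was 4.12 times as high in cells with Ighd in LFD (2.60 to 6.54) and 2.18 times in HFD (1.09 to 4.17), as ratios of the summed CPM of UMIs outside immunoglobulin genes. Zfp318, a factor needed to make Ighd transcripts, was 2.79 times (1.61 to 4.78) and 3.29 times (1.93 to 5.55) as high. Igha was at 0.107 and 0.240 times the level and Ighg3 at 0.208 and 0.227 times. S100a6, an abundant gene of the B-1 list, was at 0.849 (0.817 to 0.882) and 0.874 times (0.835 to 0.915). The B-1 list did not move one way, since Ahnak was at 0.837 (0.715 to 0.975) in LFD but 1.30 (1.12 to 1.52) in HFD, and S100a6 was its only gene with an interval on the same side of 1 in both libraries. These cells of 1 library are not replicates, and Ighd detection depends on depth, with medians of 3630 UMIs in cells with and 4073 in cells without Ighd in LFD and of 3898 and 4232 in HFD.

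Leading genes could be called in 1004 of 1139 LFD and 766 of 823 HFD B-like cells, the rest having under 10 UMIs of the 8 genes or a tie. Ighm led 985 (98.1%, 97.1 to 98.9%) and 751 (98.0%, 96.8 to 98.9%). Igha led 10 and 6 cells, Ighg3 4 and 5, Ighd 2 and 3, Ighg2b 3 and 0, and Ighg2c 0 and 1. Cells not led by Ighm thus made up 1.89% (1.14 to 2.94%) in LFD and 1.96% (1.10 to 3.21%) in HFD, a ratio of 1.03 (0.489 to 2.15). That ratio depended on the limits of the call, at 0.759 from 3 UMIs, 0.5495 where the leading gene had to hold 80% and 0 (0 to 0.8025) from 30 UMIs, where 236 HFD cells had a call. In B-like cells the calls were less firm than in plasma cell-like cells, since Igha-led cells held 7 to 36 Igha UMIs in LFD and 9 to 20 in HFD. There were 69 LFD and 34 HFD cells with 7 to 9 UMIs, just under the limit, and 135 and 55 with 10 to 12.

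Among the IgG genes, Ighg3 was the most frequent in B-like cells. It summed to 229 UMIs in LFD (44.0 CPM) and 152 in HFD (36.4 CPM), a ratio of 0.829 (0.670 to 1.02), spread over 81 and 54 cells. This ratio had no settled direction, since it was 0.410 (0.3405 to 0.491) with cells taken by their own markers, 0.628 (0.493 to 0.796) in cells with 0 or 1 proliferation UMI and 3.30 (1.81 to 6.27) in those with 5 or more. The 4 LFD cells that it led had 47, 16, 12 and 11 Ighg3 UMIs with no Ighm UMI, and the 5 HFD cells had 9 to 14 with 2 to 7 Ighm UMIs. Ighg2b summed to 87 LFD and 10 HFD UMIs, with a ratio of 0.143 (0.0665 to 0.277; 0.3395 with cells taken by markers), the only constant gene past 2-fold in B-like cells among the 5 with at least 20 UMIs. All 12 HFD Ighg2c UMIs were in 1 cell, which also held 6 of Ighg2b, the gene with which Ighg2c shares sequence. Ighg1, the gene of the most common serum IgG of the mouse, had 1 UMI in LFD and 0 in HFD B-like cells.

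Igha in B-like cells was at 73.9 (LFD) and 55.8 CPM (HFD), with a ratio of 0.755 (0.639 to 0.891). It was 0.958 (0.7595 to 1.21) in cells with 0 or 1 proliferation UMI and 0.346 (0.235 to 0.496) in cells with 5 or more. Cells led by Igha held 49.9% of these UMIs in LFD and 36.9% in HFD, and Ighm-led cells with Igha numbered 63 and 65. In proliferating cluster 15, Igha led 3 of 190 LFD cells with a call and 1 of 98 HFD cells, and in resting cluster 2 it led 7 of 814 and 5 of 668.

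The genes that act on or with the constant genes were read from lists chosen with earlier results of these data known. Their counts past 2-fold stand beside 5.93% of all genes in plasma cell-like and 5.33% in B-like cells. In lists of this size a few genes past 2-fold say little about a list. Of the switch machinery, 15 of 16 genes had at least 20 UMIs in plasma cell-like and in B-like cells, and 0 of the 15 were past 2-fold in either class, with median ratios of 0.923 and 0.912. The members with the most UMIs were Rif1, which shields DNA ends, Apex1, a DNA nuclease, and Ung, which removes uracil from DNA. Rif1 had ratios of 1.11 in plasma cell-like and 0.9125 in B-like cells, Apex1 of 0.541 and 0.762, and Ung of 0.602 and 0.698.

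Of the receptors for switch cues, 10 of 12 genes passed in each class. In plasma cell-like cells 2 were at least 2-fold lower in HFD, the IL-4 receptor chain Il4ra (7.09 and 3.51 CPM, ratio 0.496) and Tlr4 (4.29 and 1.66 CPM, 0.387), both on under 100 UMIs per library. None was past 2-fold in B-like cells, where the BAFF receptor Tnfrsf13c was at 157 and 220.5 CPM and Tnfrsf13b, the receptor TACI, at 142.5 and 182 CPM. Tnfrsf13b and Tnfrsf17, the receptor BCMA, had the most UMIs in plasma cell-like cells, with ratios of 1.11 and 1.385. Among 7 switch transcription factors, Runx3, which acts in IgA switching, had the most UMIs, with ratios of 0.728 in plasma cell-like and 1.19 in B-like cells. Next came Smad3, a relay of TGF-beta signals, in plasma cell-like (1.60) and Batf in B-like cells (0.794). Rora, linked to IgA, was lower in HFD plasma cell-like cells (29 and 27 UMIs, ratio 0.237, 0.135 to 0.415), and Bcl6 was higher in HFD B-like cells on 4 and 16 UMIs. Tbx21, which acts in IgG2 switching, had 31 and 25 UMIs in B-like cells.

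The partners of the heavy chain, light chains above all, ranged widely in level. Igkc reached 186124 (LFD) and 213472 CPM (HFD) in plasma cell-like cells, with a ratio of 1.15. Of 8 partner genes that passed, Iglc1 was higher in HFD (4.68, 4.62 to 4.73) and Iglc2 lower (0.465, 0.457 to 0.472). Jchain was at 9890 and 15974 CPM, a ratio of 1.61 (1.60 to 1.63), and in B-like cells at 92.2 and 303 CPM, a ratio of 3.29 (2.96 to 3.66). Outside the B lineage Jchain was also higher in HFD, at 66.9 and 727 CPM in endothelial-like, 18.1 and 1164 CPM in T/ILC-like, 174 and 445 CPM in macrophage-like and 27.3 and 118 CPM in stromal/mesothelial-like cells. The B-like level in HFD lay within this range, and the part of free RNA in it was not tested. Mzb1, a chaperone of IgM assembly, differed little in either class, with ratios of 1.02 and 1.015. Cd79a, which carries the membrane form of the antibody, had ratios of 0.908 in plasma cell-like and 1.02 in B-like cells.

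Of 9 genes for the secretory program and IgD processing, Zfp318 was lower in HFD plasma cell-like cells (16 and 30 UMIs, ratio 0.477). In B-like cells Ell2, an elongation factor that favours the secreted form of the heavy chain, was higher in HFD (34.8 and 71.4 CPM, ratio 2.06, 1.70 to 2.49), as was Prdm1, the master factor of plasma cells (11 and 30 UMIs, ratio 3.404, 1.66 to 7.53). The class held 5 LFD and 15 HFD cells with at least 100 constant gene UMIs and a median of 4 and 5 plasma cell markers, and their part in these values was not tested. Hnrnpll was lower in HFD B-like cells on 18 and 7 UMIs, with an interval that spans 1 (ratio 0.485, 0.171 to 1.22). Of the 9 genes in B-like cells, 2 were thus at least 2-fold higher and 1 was lower. In plasma cell-like cells Xbp1, the driver of the secretory program, was at 1832 and 2023 CPM, a ratio of 1.10, and the coactivator Pou2af1 had ratios of 0.978 there and 0.971 in B-like cells. The splicing factor Srsf3 led the list in B-like cells, with a ratio of 0.831. Of the B-1 list 0 of 9 genes in B-like cells and 1 of 9 in plasma cell-like cells (Anxa2, 0.472) were past 2-fold, and the most abundant had ratios of 0.927 (S100a6, B-like cells) and 0.834 (Cd9, plasma cell-like cells), followed by Ahnak (1.09) and S100a6 (0.636). Of the follicular list 1 of 8 in B-like cells (Cr2, 0.483) and 0 of 5 in plasma cell-like cells were, and the most abundant were Klf2, with ratios of 0.835 and 0.609, and Btg1, with 1.67 and 0.872.

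Receptors for antibodies were read in every type. The IgM receptor Fcmr reached 158 (LFD) and 131 CPM (HFD) among B-like cells, against 20.9 and 10.8 CPM for plasma cell-like cells. Fcgr2b, the inhibitory IgG receptor, was at 139 and 160 CPM in B-like cells, with a ratio of 1.15, and at 25.36 and 25.01 CPM in plasma cell-like cells. Of the IgG receptors, 3 were highest in macrophage-like cells among the named types, with Fcgr2b at 500 and 412 CPM, Fcgr3 at 467 and 469 CPM and Fcgr1 at 182 and 113 CPM. Fcgr4 was at 105 and 46.3 CPM there and at 70.5 and 89.6 CPM in neutrophil-like cells. Pigr, which carries polymeric IgA and IgM across epithelia, had 0 UMIs in both libraries in plasma cell-like, T/ILC-like, macrophage-like, neutrophil-like and endothelial-like cells, and 12 and 9 UMIs in B-like cells. Fcgrt, the receptor that recycles IgG, was at 116 and 286 CPM in macrophage-like cells and 74.3 and 132 CPM in endothelial-like cells. Of 4 receptor genes with at least 20 UMIs in plasma cell-like cells Fcgrt was past 2-fold (9 and 13 UMIs), and of 8 in B-like cells none was.

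Across 16 profiles, 8 types in each of the 2 libraries, the genes outside the immunoglobulin loci whose log2(CPM + 1) levels tracked Ighm most closely were Mzb1 (Pearson r 0.987), Oosp1 (0.946), Jchain (0.944), Pou2af1 (0.910) and Mef2b (0.891). For Ighd they were Vpreb3 (0.970), Bank1 (0.950), Gm31243 (0.943), Zbtb32 (0.919) and Rdh12 (0.914). For Igha they were Gm30211 (0.894), Syvn1 (0.892), E2f2 (0.883), Gm47230 (0.862) and Gm37065 (0.852). The profiles of a library share its free RNA, so these values are descriptions.

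Ighm was also counted in cells that are not of the B lineage. Only where these had under 50 UMIs of the 8 genes is it called free antibody RNA here. Outside the B lineage, 51.9% of 8214 LFD cells and 90.9% of 5828 HFD cells had an Ighm UMI. The means were 2.45 and 12.7 and the medians 1 and 3 per cell. Most of these UMIs were in few droplets. In LFD 21 droplets (0.256%) and in HFD 60 (1.03%) had at least 50 UMIs of the 8 genes, and they held 64.9% and 75.1% of all such UMIs outside the B lineage. These droplets had medians of 811 and 891 constant gene UMIs and of 8 and 9.5 plasma cell markers, against 3 in the rest of either library, and 85.7% and 71.7% of them were among those scored highest as doublets, against 7.08% and 5.79% of the rest. Ighm led 20 of the 21 and all 60 of them, and Ighg2b led the other LFD droplet. Whether they hold 2 cells was not tested.

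In the remaining droplets the background came to 0.859 (LFD) and 3.18 (HFD) Ighm UMIs per cell, with a ratio of 3.71. Ighm UMIs per kept cell of any type were 45.0 and 235, a ratio of 5.22, and plasma cell-like cells held 78.0% and 89.3% of them. B-like cells had medians of 18 and 22 Ighm UMIs, so the background of 0.859 and 3.18 was a larger part of them in HFD than in LFD. The B-like ratio of Ighm less this background is given above. The ratio of Igha to Ighm in the background lay near that of the plasma cell-like cells in each library, and that of Ighd did not. For each 1000 Ighm UMIs there were 12.8 Igha UMIs in LFD (10.3 to 15.7) and 1.96 in HFD (1.37 to 2.72) in these droplets, beside 11.5 and 1.37 in plasma cell-like and 16.2 and 9.93 in B-like cells. Ighd was at 5.40 and 0.980 per 1000, beside 0.0446 and 0.0217 in plasma cell-like and 23.8 and 19.1 in B-like cells. In HFD both genes were thus at higher ratios to Ighm in B-like cells than in this background.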

How the data were processed

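Single-cell RNA-seq libraries of eYFP+ gWAT SVF cells (10x Single Cell 3′ v3), 1 per diet, were analysed from the deposited matrices of raw UMI counts per gene and barcode. The authors made these counts with Cell Ranger 4.0.0, and the submitters' processing notes also name STAR, bcl2fastq 2.17.1.14, Seurat 4.1.0 and the build mm10 (GRCm38). The other deposited files name the rows and columns. Total counts were 114311020 over 11281 LFD barcodes and 119498750 over 9631 HFD barcodes. Barcodes with 500 to 40000 UMIs and under 12.5% mt- UMIs were kept, and the study's minimum of 100 genes per cell was not applied, so cells with fewer genes stayed in.

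Cells were clustered with leidenalg 0.10.2 and igraph 0.11.9 (30 principal components, 20 neighbours, resolution 1.0). The 2000 variable genes, without immunoglobulin genes, were ranked in each library. Each gene was centred and scaled within its library, and no other integration was made. Scanpy 1.11.5 gave the doublet scores only. A cluster was named -like from its marker list. Clusters with markers of 2 lineages (356 LFD and 321 HFD cells) and unnamed clusters (98 and 174) were left out of the named types, and the cluster with plasma cell and mesothelial markers (78 and 94 cells) was among them. Doublets were kept in the main values. As an alternative the cells with the highest Scrublet scores were removed at 0.8% per 1000 barcodes, 922 LFD (9.02%) and 658 HFD cells (7.70%).

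The leading gene had the most UMIs among the 8 genes, with at least 10 in all and no tie. Counts were summed per type and library and given as CPM, with exact Poisson, Clopper-Pearson and conditional binomial intervals (SciPy 1.17.1) at 95%. These ratios were checked on simulated sums with counting error only, which hold no cell-to-cell spread. The leading-gene calls were checked on simulated cells at the depth of plasma cell-like cells, so B-like calls were not covered. Levels of 0 in plasma cell-like cells are given with the CPM of 3 counts. With 1 library per diet no test was made. Genes outside the 8 were named by a fixed rule: the 2 to 4 members of each list with the most UMIs, and the 5 genes most like Ighm, Ighd and Igha. Igkv1-117, Tbx21, the genes past 2-fold, the other receptors and the genes compared by Ighd were named after their values were seen. The genes, the lists and the alternatives were chosen with earlier results of these data known. The result of 1 gene of the lists is not reported here.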

Additional observations from a re-analysis of the deposited data

Results flagged for a closer look

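Barcodes outside the limits on cells, which none of the comparisons used, also held antibody RNA. Of 1044 LFD barcodes with at least 12.5% mitochondrial UMIs, 4 had 100 or more UMIs of the heavy chain constant genes, and of 1004 such HFD barcodes, 20 had. Of 19 LFD barcodes with over 40000 UMIs, 12 (63.2%, 38.4 to 83.7%) had 100 or more, and of 82 HFD barcodes, 58 (70.7%, 59.7 to 80.3%) had. Ighm led every one of these barcodes. The highest, in HFD, carried 5724 UMIs of the constant genes, above the 4399 of the highest plasma cell-like cell that was kept.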

How the results depend on the processing

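No alternative was run for the partner chains, the lists or the cells split by Ighd. Alternatives were run for the constant genes, their leading shares, purity and Ighm outside the B lineage. Of the ratios they covered, none whose counting interval left out 1 changed direction, while B-like Ighg3 and Ighd, plasma cell-like Ighd and the B-like share not led by Ighm, whose intervals spanned 1, lay on both sides of it. The HFD to LFD ratio of Ighm in plasma cell-like cells, 1.27, was 1.39 as CPM of UMIs outside immunoglobulin genes, 1.375 with median-ratio scaling, 1.285 as a mean of per-cell CPM, 1.26 without doublets, 1.39 with cells taken by markers and 1.24 at a mitochondrial limit of 5%. Among alternatives chosen after seeing the data it was 1.31 in cells with 0 or 1 proliferation UMI, 1.23 with 5 or more and 1.28 without the highest cell. The ratio of Igha, 0.153, was 0.167, 0.165, 0.196, 0.123 (markers) and 0.103 (5%), and 0.0990 and 0.664 in the 2 proliferation classes. In B-like cells the ratio of Ighm, 1.23, was 1.19 with median-ratio scaling, 1.15 per cell and 1.15 by markers, 1.69 at 5%, 1.14 less free RNA, 1.30 and 1.09 in the proliferation classes, 1.19 without the highest cell and 1.11 without cells of 100 or more constant gene UMIs.

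The LFD share of plasma cell-like cells not led by Ighm was 6.25% without the LFD cluster, and the HFD to LFD ratio of 0.229 ranged from 0.0802 (without that cluster) to 0.249 (doublets removed). For B-like cells, the LFD share of 1.89% was 3.21% from 3 UMIs, 0.943% at 5% and 0.791% after thinning. The HFD share of 1.96% was 0.676% where the leading gene had to hold 80%, and 0 from 30 UMIs and at 5%, with ratios of 0, and the ratio of 1.03 was 1.43 after thinning. At 5% only 106 LFD and 17 HFD cells had a call. Ighm per cell outside the B lineage, 2.45 and 12.7, was 0.859 and 3.18 without droplets of 50 or more UMIs. It was 0.584 and 1.85 without cells holding 2 or more B or plasma cell markers, which left 1747 LFD and 1364 HFD cells. The cause of these shifts was not tested, apart from what each alternative leaves out. With no filter on low counts, 29.0% of genes in plasma cell-like and 29.5% in B-like cells were past 2-fold. Of the values that answer a comparison, 64 stayed within their counting interval and 38 moved. Among the ratios of single genes and shares past 2-fold, 49 stayed and 22 moved. Of those, B-like Ighg3 went from 0.829 to 0.410 by markers, 1.19 at 5%, 0.628 and 3.30 in the proliferation classes, B-like Igha to 0.958 and 0.346, B-like Ighd to 0.513 at 5% and 1.19 in proliferating cells, and B-like Ighg2b to 0.3395 by markers. In plasma cell-like cells Ighd went from 0.620 to 0.317 per cell and 1.21 by markers, Ighg3 from 0.0121 to between 0.00526 and 0.269, and Ighg2b stayed at or under 0.00858. The comparison of genes by isotype was not run under any alternative. No paired analysis was possible because each diet had 1 library.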
